A study of Mus musculus with 4 samples.

Results

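The lung tumor of a mouse heterozygous for the A159V change in FEN1 was compared with the lung tumor of a wild-type (WT) mouse, by the small tandem duplications that the caller Pindel recorded in their exomes. A tandem duplication is a stretch of DNA that stands in the genome a further time next to itself. A record was counted as a call of a tumor where 1 or more reads carried the duplication there. By this rule 836 of the 1404 records in both tables were tumor calls, 502 of the WT tumor and 334 of the A159V tumor. The series holds 4 libraries of mouse genomic DNA after exon capture, 1 each from WT normal lung, WT lung tumor, A159V/WT normal lung and A159V/WT lung tumor. The labels give the A159V animals as heterozygous and the A159V change as a knock-in. The treatment label reads knock-in for the WT animals too, while their genotype label reads wildtype. Strain, age, the way the tumors arose and whether a tumor and a normal lung share an animal are not given in the labels. With 1 library a side there is no test between the tumors, and differences between animals were not measured. Every interval below covers counting error only and is a 95% interval unless stated otherwise.

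FEN1, flap endonuclease 1, cuts the 5′ flaps that form when DNA polymerase displaces the start of the previous Okazaki fragment on the lagging strand. Only after the flap is cut can the fragments be joined by DNA ligase. Flaps that are left uncut can pair with other DNA or fold back on themselves and be joined in that state, which is known as a source of short duplications.

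Each call consists of a duplicated segment, of which both copies are present in the altered DNA, and in most calls of further inserted bases between the copies, called intervening bases here. The runs below show what the tables hold for the main kinds. Each run is the first copy, the intervening bases and the second copy, 5′ to 3′ on the reference strand of GRCm38, as the tables report it. The first coordinate is the base before the duplicated segment and the second is its last base. A block of n stands as in the tables. The first 3 runs are exact copies with no intervening bases, and capitals mark the second copy. They are shown because plain tandem copies like these were a minority of calls.
Rpap3, both tumors, chr15:97686398-97686431: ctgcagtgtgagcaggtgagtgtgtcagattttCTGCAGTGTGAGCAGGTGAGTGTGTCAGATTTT
Blm, WT tumor, chr7:80505317-80505358: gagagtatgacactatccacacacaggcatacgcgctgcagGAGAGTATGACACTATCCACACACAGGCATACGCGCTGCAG
Arid1b, A159V tumor, chr17:5174596-5174638: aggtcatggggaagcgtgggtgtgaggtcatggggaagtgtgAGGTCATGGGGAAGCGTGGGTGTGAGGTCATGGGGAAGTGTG

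The next runs add several further copies of one unit, and upper and lower case alternate from unit to unit. They were chosen because the unit is longer than a microsatellite unit and because most such loci were read in more than 1 library.
Irak4, WT tumor, chr15:94563065-94563088: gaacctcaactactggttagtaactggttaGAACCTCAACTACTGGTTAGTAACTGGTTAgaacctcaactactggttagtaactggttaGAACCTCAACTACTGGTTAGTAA
Mast4, A159V tumor, identical in the WT tumor, chr13:102774434-102774480: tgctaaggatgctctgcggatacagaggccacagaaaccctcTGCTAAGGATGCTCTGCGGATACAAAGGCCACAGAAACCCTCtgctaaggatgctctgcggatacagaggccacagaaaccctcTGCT
Sema5a, WT tumor, chr15:32535926-32535968: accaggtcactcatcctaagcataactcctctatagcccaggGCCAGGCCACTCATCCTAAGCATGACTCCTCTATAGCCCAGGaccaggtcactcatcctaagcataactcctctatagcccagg
Fgfr2, WT tumor, chr7:130218652-130218681: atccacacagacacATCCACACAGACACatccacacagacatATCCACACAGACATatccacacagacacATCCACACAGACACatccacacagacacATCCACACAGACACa
Fanca, A159V tumor, chr8:123306556-123306601: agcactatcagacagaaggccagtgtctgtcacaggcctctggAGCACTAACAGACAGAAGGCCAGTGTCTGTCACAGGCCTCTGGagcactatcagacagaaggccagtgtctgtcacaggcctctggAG

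In the next runs the intervening bases hold the reverse complement of part of the segment. Capitals mark that part and its inverted copy.
Nbas, A159V tumor, chr12:13436525-13436570: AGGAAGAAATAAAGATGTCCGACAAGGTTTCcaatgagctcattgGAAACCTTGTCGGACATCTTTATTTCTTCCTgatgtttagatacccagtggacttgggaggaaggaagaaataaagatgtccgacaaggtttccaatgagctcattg
Rbl2, A159V tumor, chr8:91099909-91099954: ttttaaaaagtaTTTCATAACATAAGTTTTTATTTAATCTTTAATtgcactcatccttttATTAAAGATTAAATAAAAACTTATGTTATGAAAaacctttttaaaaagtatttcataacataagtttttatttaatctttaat
Vmn2r40, WT tumor, chr7:8918767-8918813: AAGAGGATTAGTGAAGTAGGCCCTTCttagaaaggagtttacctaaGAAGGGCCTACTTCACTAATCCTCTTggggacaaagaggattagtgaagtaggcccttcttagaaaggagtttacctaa

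In the last runs no exact stretch of 12 bp or more of the segment, direct or inverted, was found between the copies. Shorter or diverged stretches may still stand there. Capitals mark both copies. The runs of Chl1 and of a gene-free stretch of chromosome 2 show the same segment in both tumors with intervening bases that are alike but not identical.
Chl1, WT tumor, chr6:103649106-103649152: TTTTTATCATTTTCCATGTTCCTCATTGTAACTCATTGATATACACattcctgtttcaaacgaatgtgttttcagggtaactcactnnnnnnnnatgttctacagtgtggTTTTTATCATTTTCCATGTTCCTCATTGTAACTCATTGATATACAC
Chl1, A159V tumor, chr6:103649106-103649152: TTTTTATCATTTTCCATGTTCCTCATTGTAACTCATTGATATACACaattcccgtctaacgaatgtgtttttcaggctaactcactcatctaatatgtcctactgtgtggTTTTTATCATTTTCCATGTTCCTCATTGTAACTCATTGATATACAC
chromosome 2, WT tumor, chr2:98666984-98667033: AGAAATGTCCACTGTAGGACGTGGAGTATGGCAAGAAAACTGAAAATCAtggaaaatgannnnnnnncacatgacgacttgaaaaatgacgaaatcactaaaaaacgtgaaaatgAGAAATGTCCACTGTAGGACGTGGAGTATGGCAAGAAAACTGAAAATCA
chromosome 2, A159V tumor, chr2:98666984-98667033: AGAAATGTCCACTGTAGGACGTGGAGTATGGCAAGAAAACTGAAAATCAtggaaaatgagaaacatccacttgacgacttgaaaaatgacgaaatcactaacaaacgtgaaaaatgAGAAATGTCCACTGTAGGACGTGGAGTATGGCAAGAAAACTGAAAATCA

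The A159V tumor had fewer calls than the WT tumor, 334 against 502. The ratio was 0.665 (0.578 to 0.766), and the lower count was spread over most kinds of call. In protein-coding gene spans, from the first to the last base of the gene with introns included, the WT tumor had 253 calls and the A159V tumor 177. Outside any annotated gene the counts were 209 and 129, a ratio of 0.617 (0.492 to 0.772). At a depth of 20 or more reads, where depth is reference plus duplication reads, they were 124 and 81, a ratio of 0.653 (0.487 to 0.871). Fen1 itself (chromosome 19, 10199132 to 10204393) held no call in either tumor.

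How deeply each tumor was sequenced as a whole is not given by the tables, which list only recorded sites. Reference reads summed over all recorded sites were 161736 for WT and 105107 for A159V, and division by these sums turned the ratio of calls to 1.02 (0.889 to 1.18). Those sums come from unlike sites, and most of their reads lay in a few piled-up windows, that is windows of 100 kb with 8 or more records. At the 65 positions outside such windows that both tables recorded, the reference reads summed to 862 (WT) and 865 (A159V). Division by these sums left the ratio of calls at 0.663 (0.576 to 0.763). The largest counts in both sums came from Zscan18 positions that overlap each other, where the A159V tumor had more reads. Some reads there can be counted more than once, so the near-equal sums rest in part on that locus. The scaled ratio without Zscan18 was not computed. At the 13 of the 65 positions with 20 or more reference reads over both tumors, Zscan18 included, the median A159V to WT ratio of reads was 0.941 (0.792 to 1.20).

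Depth at positions of both tables was unlike between kinds of sequence. In the gene-free windows of chromosomes 2 and 9 all 14 such positions had fewer reference reads in the A159V tumor, 31105 against 42028 in sum, a ratio of 0.740. At Chl1 all 7 positions did, with 4332 against 6512 reads, a ratio of 0.665. Many positions of the chromosome 2 window and of Chl1 overlap. The Chl1 positions that start at 103649104 and 103649106 and end at 103649152 each had 581 WT and 369 A159V reads. The sums therefore count some reads more than once, and the positions are not separate observations. The normal lungs showed ratios below 1 at the same positions too, 0.753 in the gene-free windows and 0.771 at Chl1. At the 65 positions outside piled-up windows the normal sums were 757 (WT) and 883 (A159V), a ratio of 1.17. At the 4 Rpap3 positions, which overlap too, the tumor sums were 53 (WT) and 55 (A159V). The part of depth in the count of calls was not tested beyond these scalings.

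**Figure D1:**
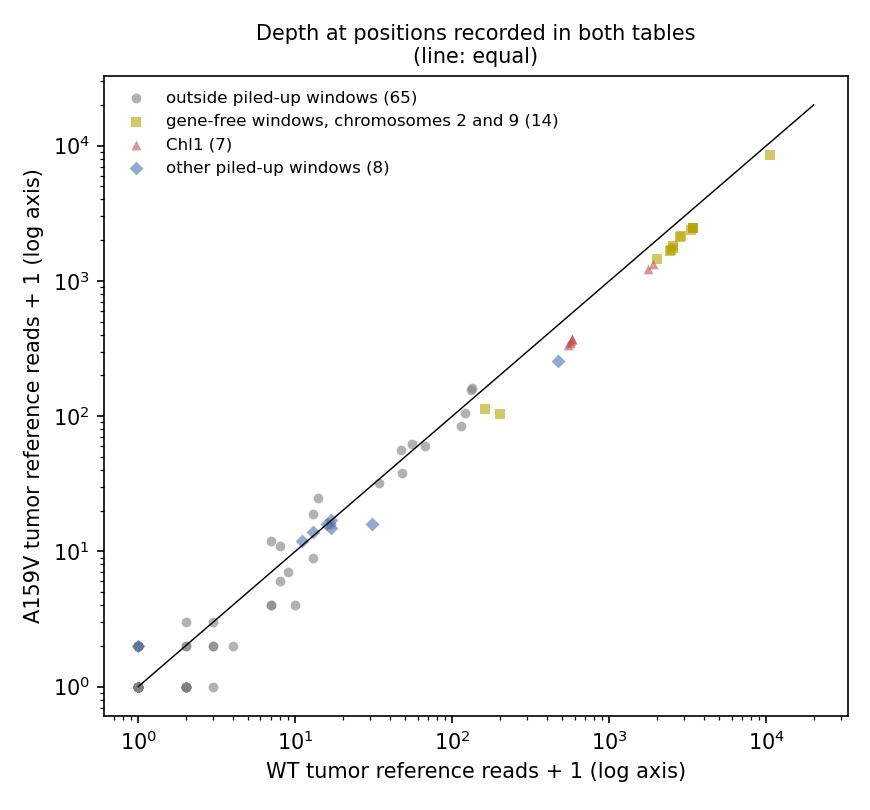
Reference reads plus 1 in the A159V tumor (y, log axis) against the WT tumor (x, log axis) at the 94 positions recorded in both tables, 1 point per position, with the line of equal depth. The 14 positions of the gene-free windows and the 7 of Chl1 lie below the line, and the 65 positions outside piled-up windows lie on both sides of it. Some positions overlap, so points can share reads.

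Most calls of either tumor rested on 1 read. In the WT tumor 439 of 502 calls had a single duplication read, and in the A159V tumor 300 of 334. Calls with 2 or more reads numbered 63 and 34, a ratio of 0.540 (0.345 to 0.832), and calls with 5 or more numbered 8 and 5. The median depth was 2 reads in each tumor. By depth class the A159V to WT ratio was 0.765 (0.609 to 0.959) for sites with 1 read, 0.489 (0.358 to 0.662) for 2 to 4 reads, 0.774 (0.520 to 1.15) for 5 to 19 reads, 0.660 (0.418 to 1.03) for 20 to 99 reads and 0.648 (0.437 to 0.952) for 100 or more. The class of 2 to 4 reads held 133 WT and 65 A159V calls. Its interval was the one depth class of these 5 that left out the ratio of all calls.

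**Figure D2:**
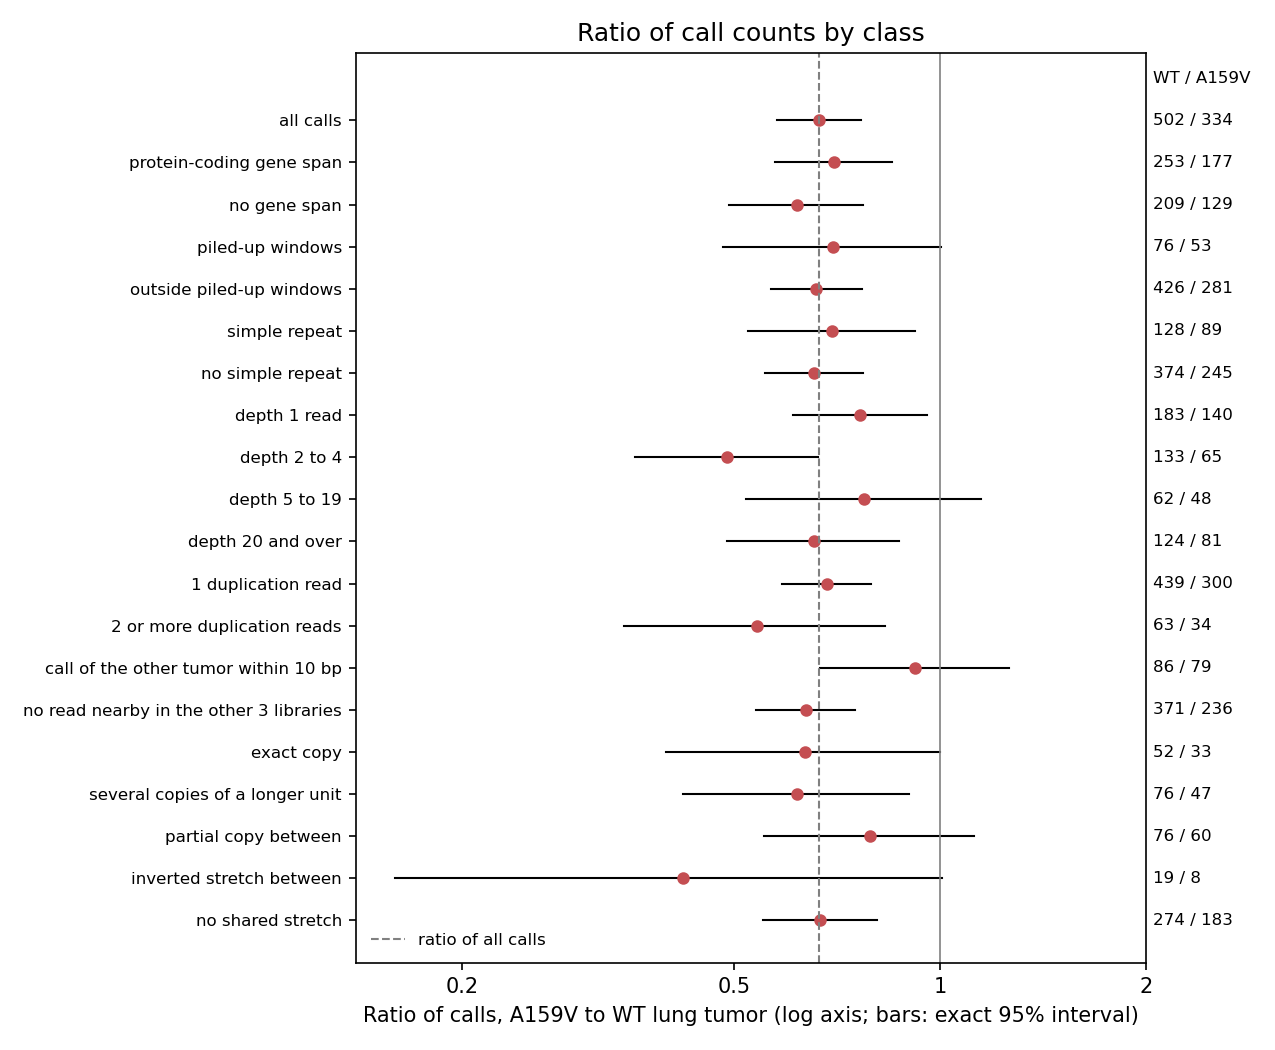
Ratio of call counts, A159V to WT lung tumor (x, log axis), for all calls and for classes by place, repeats, depth, reads, presence in other libraries and structure, with exact 95% intervals and the counts at the right. Points lie below 1 in every class drawn, and of the classes drawn the intervals of sites with 2 to 4 reads (0.489) and of calls with a call of the other tumor nearby (0.919) leave out the dashed ratio of all calls, 0.665.

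Calls were recorded on 22 chromosomes, the mitochondrial genome included, and on 18 of them the A159V tumor had fewer. It had more on chromosome 5, with 14 against 13, on chromosome 13, with 20 against 14, on chromosome 15, with 26 against 21, and on the mitochondrial genome, with 1 against 0. The largest gap in ratio was on chromosome 14, with 40 WT and 13 A159V calls, a ratio of 0.325 (0.159 to 0.620). Chromosomes 13, 14 and 15 were the 3 whose interval left out the ratio of all calls, and these intervals are not adjusted for the 22 chromosomes compared.

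Most of the chromosome 14 calls were scattered. A single piled-up window near 19.4 Mb, which overlaps no gene, held 6 of the WT and 1 of the A159V calls, and outside it the counts were 34 and 12, a ratio of 0.353. Of those outside, 4 WT and 0 A159V calls lay in the window from 48800001 to 48900000. Over the whole chromosome, calls of 2 or more reads numbered 6 and 1. In normal lung chromosome 14 went the other way, with 15 calls in the WT and 31 in A159V. On chromosome 19, which carries Fen1, there were 21 WT and 8 A159V calls, a ratio of 0.381 (0.146 to 0.895), and on chromosome 8 there were 26 and 11.

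**Figure D3:**
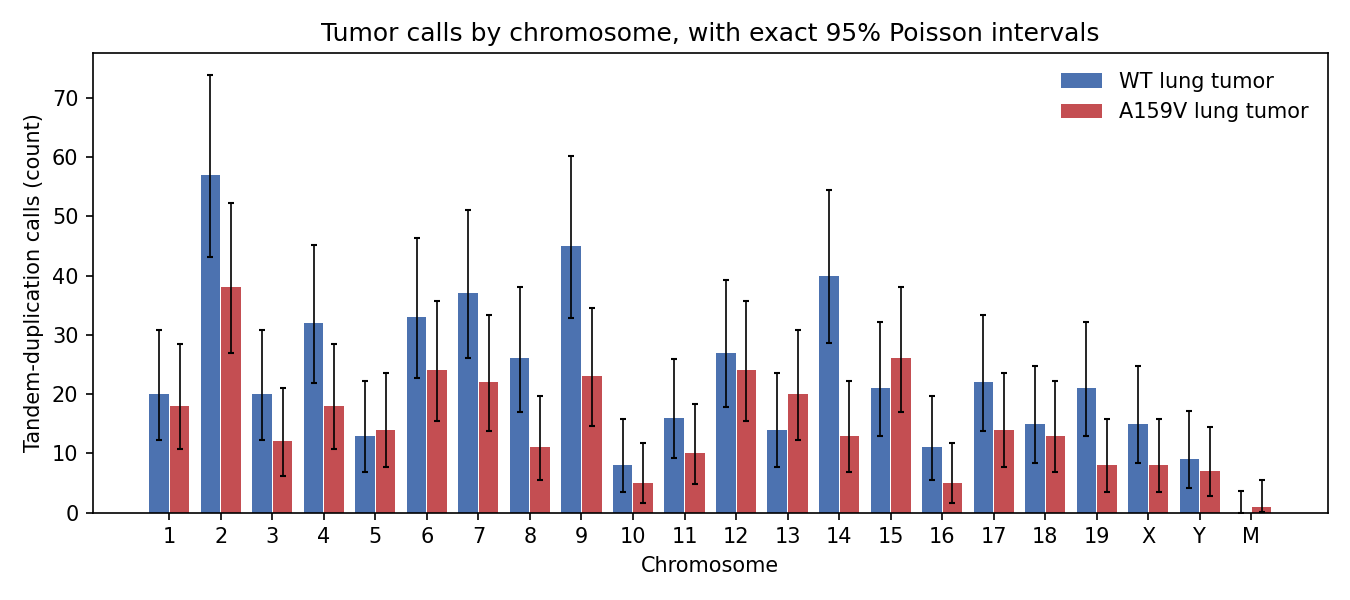
Tumor calls per chromosome (y, count), WT in blue and A159V in red, with exact 95% Poisson intervals. Chromosome 14 shows the widest gap in ratio, 40 against 13, and chromosomes 5, 13, 15 and M have more calls in the A159V tumor.

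Calls piled up at few places in both tumors. The 7 piled-up windows held 76 WT and 53 A159V calls, a ratio of 0.697 (0.482 to 1.00), and all other sites 426 and 281, a ratio of 0.660 (0.565 to 0.769). The window of chromosome 2 from 98600001 to 98700000, with no annotated gene, held 29 and 24 calls, and that of chromosome 9 from 3000001 to 3100000, also with none, held 20 and 11. Median depth at the calls of these gene-free windows was 1742 reads for WT and 1658 for A159V, against 2 over all calls. Chl1, a cell adhesion gene of the nervous system, had 10 calls in each tumor, all in 1 window. Rpap3, which encodes an RNA polymerase II-associated protein, had 3 and 4. No repeat annotation was used here, so reads from other copies of a repeat cannot be told apart from reads of these places.

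The duplicated segments had much the same lengths in both tumors. WT segments had a median of 42 bp (40 to 42) and A159V segments of 41.5 bp (40 to 43). Segments of 41 to 49 bp made up 53.6% of calls in each, and none was longer than 49 bp. The A159V to WT ratio was 0.678 for segments of 21 to 30 bp, 0.659 for 31 to 40 bp and 0.665 for 41 to 49 bp. The shortest segments in protein-coding gene spans were 20 bp in the WT tumor, in Nr1i2 and Prrg4, and 19 bp in the A159V tumor, in Pglyrp1, which encodes a peptidoglycan recognition protein.

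Intervening bases were also much alike in length. Where present, they had a median length of 60 bp (58 to 61) in the WT tumor and 61 bp (60 to 63) in the A159V tumor, and none was longer than 69 bp. Intervening stretches of 21 to 40 bp were found in 43 WT and 18 A159V calls, a ratio of 0.419 (0.227 to 0.741), and those of 1 to 20 bp in 5 and 6. The interval of the former includes the ratio of all calls. Those of 41 to 60 bp numbered 187 and 121, and those of 61 to 69 bp 215 and 156, a ratio of 0.726 (0.587 to 0.896). A block of n stood between the copies in 222 WT and 153 A159V calls.

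The total inserted length, the segment plus the intervening bases, ranged from 17 to 118 bp in the WT tumor and from 20 to 118 bp in the A159V tumor. Insertions of 76 to 100 bp numbered 269 and 158, a ratio of 0.587 (0.480 to 0.718), and those of 101 to 110 bp 87 and 78, a ratio of 0.897 (0.652 to 1.23). As shares, the class of 101 to 110 bp was 17.3% of WT and 23.4% of A159V calls, a difference of 6.02 percentage points (0.505 to 11.7). A narrow class was then compared by place, set as the median insertion of the gene-free windows and 1 bp to each side. In the gene-free windows of chromosomes 2 and 9 the median insertion was 115 bp in both tumors, and 31 of 49 WT calls (63.3%) and 23 of 35 A159V calls (65.7%) were of 114 to 116 bp. Elsewhere that length made up 2.65% of WT and 1.67% of A159V calls. Since the class was set from the calls of those windows, a higher share there was in part built in.

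**Figure D4:**
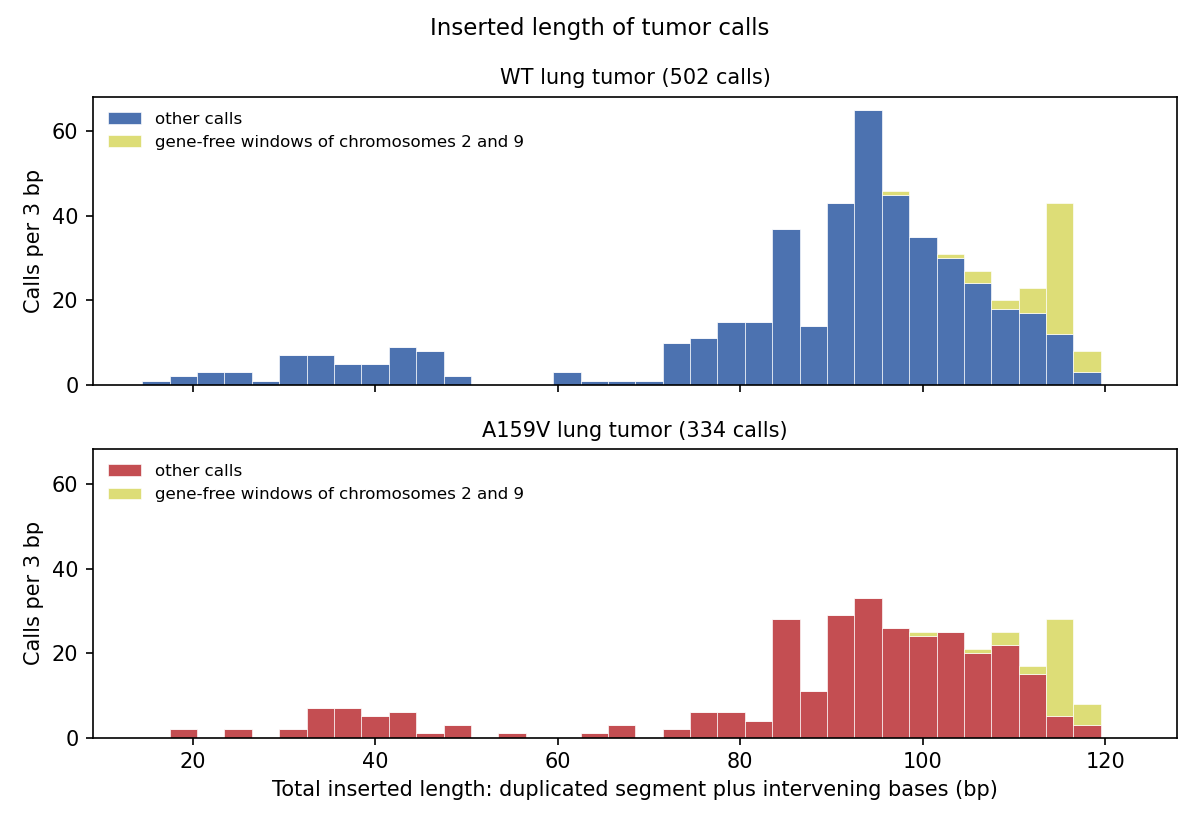
Calls per 3 bp of total inserted length (x, bp) in the WT tumor (top) and the A159V tumor (bottom), with calls in the gene-free windows of chromosomes 2 and 9 stacked in yellow. Both tumors show a low group under 50 bp, mostly exact copies, and a broad group of 76 bp and more, and the gene-free windows collect at 114 to 116 bp.

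Base content was close in both tumors. The median GC content of the segments was 41.7% (40 to 43.8) for WT and 42.5% (41.3 to 44.4) for A159V calls. Over all segment bases A made up 29.9% and 28.6%, C 20.1% and 20.2%, G 21.7% and 22.2%, and T 28.4% and 29.0%. Segments of at least 90% purine on 1 strand numbered 51 and 28, a ratio of 0.549 (0.333 to 0.887), an interval that includes the ratio of all calls. By GC class the ratio was 0.596 for segments under 30% GC and 0.678 for those of 60% or more.

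Simple repeats, here a homopolymer of 8 bp or more, or a unit of 6 bp or less that stands 3 or more times over 12 bp or more, held 128 WT calls (25.5%, 21.7 to 29.5) and 89 A159V calls (26.6%, 22 to 31.7). Homopolymers made up 67 and 47 of these, AC or GT repeats 16 and 14, and units of 4 bp 19 and 13. Units of 3 bp numbered 9 and 3. Calls in simple repeats lay at low depth, with 1 WT and 2 A159V calls at 20 or more reads.

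There were 52 exact copies among the WT calls and 33 among the A159V calls, 10.4% and 9.88% of calls. Simple repeats made up 22 of these in the WT tumor (42.3%, 28.7 to 56.8) and 20 in the A159V tumor (60.6%, 42.1 to 77.1). Outside simple repeats the exact copies numbered 30 and 13, a ratio of 0.433 (0.207 to 0.856), whereas within them the ratio was 0.909 (0.471 to 1.75). The intervals of the 2 ratios overlap, and both include the ratio of all calls.

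At Rpap3 the 33 bp exact copy printed above was the best supported one of either tumor. It was in 10 of 26 reads of the WT tumor (38.5%, 20.2 to 59.4) and 7 of 23 of the A159V tumor (30.4%, 13.2 to 52.9), with 4 of 21 and 6 of 19 in the normal lungs. The segment is the same in all 4 libraries and the tumor shares overlap. Psrc1, which encodes a spindle-associated protein, had an exact copy of 41 bp in 1 of 30 A159V tumor reads. Blm, a RecQ helicase that unwinds recombination intermediates, had one of 41 bp in 1 of 3 WT tumor reads. Arid1b, a subunit of a chromatin remodelling complex, had one of 42 bp in 1 of 2 A159V tumor reads.

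Several copies of a longer unit were added in 76 WT and 47 A159V calls, a ratio of 0.618 (0.420 to 0.901). A unit was called where the run repeated itself with at least 90% of bases alike, and a longer unit is one of more than 6 bp. The median unit was 38 bp (31 to 42) in the WT tumor and 33 bp (28 to 42) in the A159V tumor. The inserted length was a whole multiple of the unit in 71 of the 76 WT calls and 46 of the 47 A159V calls. The insertion held 2 units in 41 WT and 21 A159V calls and 3 units in 15 of each. With at least 80% of bases alike, calls with a unit of any length numbered 113 and 62, a ratio of 0.549 (0.396 to 0.754).

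These calls lay mostly at loci that other libraries carried too. Of the WT calls with a longer unit, 53 of 76 (69.7%, 58.1 to 79.8) had a duplication read within 10 bp in another of the 4 libraries, and of the A159V calls 34 of 47 (72.3%, 57.4 to 84.4). Among calls with no exact stretch of 12 bp or more of the segment between the copies, outside piled-up windows, the shares were 8.06% (4.76 to 12.6) and 11.3% (6.63 to 17.8). With piled-up windows kept in they were higher, 53 of 274 WT and 43 of 183 A159V calls. Of the calls with a longer unit, 0 WT and 3 A159V lay in such windows. The intervals given for the 2 kinds do not overlap in either tumor, but calls that share a start were counted separately. Depth was low at most calls with a longer unit, with medians of 2 (WT) and 1 (A159V) reads.

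Irak4, a signalling kinase downstream of interleukin-1 and Toll-like receptors, is the example with most reads in the WT tumor. Its insertion of 90 bp, 3 units of 30 bp in the WT run printed above, was in 14 of 20 WT tumor reads (70.0%, 45.7 to 88.1). The A159V tumor had the same segment and the same inserted length in 8 of 19 reads (42.1%, 20.3 to 66.5), with a block of n between the copies. The normal lungs had 4 of 15 in the WT and 11 of 20 in A159V, and the tumor intervals overlap.

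Of further loci with a longer unit, named after their values were seen, Zscan18 had a unit of 36 bp in 3 of 135 WT tumor reads. The others named here had 8 or fewer reads in each tumor. Fgfr2, a fibroblast growth factor receptor, had 6 added units of 14 bp in 5 of 5 reads of the WT tumor. The A159V table recorded a duplication of the same segment in 1 of 1 read of normal lung and 0 of 1 of the tumor, a depth at which absence from the A159V tumor was not detectable. Mast4, a microtubule-associated kinase gene, had 2 added units of 42 bp in 2 of 8 WT and 3 of 6 A159V tumor reads, with the identical variant in both. Sema5a, which encodes a semaphorin that guides axons, had 2 units of 42 bp in 2 of 2 and 3 of 3 reads. Fanca, of the Fanconi anaemia pathway of crosslink repair, had 2 units of 43 bp in 3 WT calls and 1 A159V call, each with 1 read at a depth of 1. Mcm8, a helicase of homologous recombination, had 3 units of 30 bp in 1 of 2 WT tumor reads, and an A159V call of 2 of 2 reads that ends at the same base.

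An inverted stretch of the segment stood between the copies in 19 WT calls and 8 A159V calls, a ratio of 0.421 (0.159 to 1.01). The stretch was at least 12 bp long, with a median of 25 bp in the WT tumor and 20.5 bp in the A159V tumor. Outside simple repeats the counts were 17 and 4, a ratio of 0.235 (0.0576 to 0.721). Both intervals include the ratio of all calls. All 27 calls rested on 1 read, and none had a duplication read within 10 bp in another library. Of the WT calls 10 lay in protein-coding gene spans, and of the A159V calls 7. Both A159V calls at Tyw5 share a start, so they may be 1 event.

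Among these, Nbas, which encodes a protein of Golgi-to-ER transport, had an inverted stretch of 31 bp in 1 of 27 A159V tumor reads (3.70%, 0.0937 to 19), with 0 of 20 in normal lung. Rbl2, a pocket protein of the retinoblastoma family, had 33 bp in 1 of 18 A159V tumor reads. The WT run at Vmn2r40, a vomeronasal receptor gene, with 26 bp and 1 of 160 reads, was recorded with the same sequence at Gm20345 on chromosome 7 (9687233 to 9687279). A read of near-identical gene copies can be placed at either, so these may be 1 event too.

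A partial direct copy of the segment stood between the copies in 76 WT and 60 A159V calls, a ratio of 0.789 (0.553 to 1.12). No exact shared stretch of 12 bp or more was found in 274 and 183 calls, a ratio of 0.668 (0.551 to 0.808). These classes were defined after the tables had been seen.

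The inserted length was a multiple of 3 bp, the condition for an insertion in a coding exon to leave the frame intact, in 101 of 253 WT calls in protein-coding gene spans (39.9%, 33.8 to 46.2) and 79 of 177 A159V calls (44.6%, 37.2 to 52.3). Outside genes the shares were 34.4% (28.0 to 41.3) and 46.5% (37.7 to 55.5). Evenly spread lengths would give 33.3%. Among calls in protein-coding gene spans with no duplication read within 10 bp in another library, the shares were 33.9% (27 to 41.3) and 39.2% (30.6 to 48.3), and both intervals include the even value. Exons and introns were not told apart, since the annotation used gives gene spans only.

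Both tumors had calls within 10 bp of each other at 57 loci, 39 of them outside piled-up windows. A further 402 loci were called in the WT tumor only and 250 in the A159V tumor only. The shared loci held 86 WT calls (17.1%) and 79 A159V calls (23.7%), and since the WT list is longer, a like number of shared calls is a smaller share of it. The identical segment was duplicated in both tumors at 49 of the loci and the identical variant at 8. Among the 57 loci 1 lay in a simple repeat, against 25.5% and 26.6% of all calls.

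Where the same segment was called in both tumors, the insertions were close to identical. Over 57 such segments the inserted length was the same in 46. Among the 53 with intervening bases, these were 97.7% alike at the median, with n taken as a match, and at least 90% alike in 44. More duplication reads were seen in the WT tumor at 20 of the 57 shared loci, in the A159V tumor at 15, and equal numbers at 22.

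At Chl1 the best supported segment, of 46 bp with 64 intervening bases, was in 44 of 625 WT tumor reads (7.04%, 5.16 to 9.34) and 28 of 397 A159V tumor reads (7.05%, 4.74 to 10). The normal lungs had 37 of 415 and 19 of 302, so all 4 libraries carried it. In the immunoglobulin heavy chain locus a segment of 35 bp was in 4 of 51 and 3 of 40 reads, 7.84% and 7.50%. Slc6a13, a GABA transporter gene, had 10 of 12 WT tumor reads at its best call and 1 of 2 A159V tumor reads at another segment with the same start. At 4933406C10Rik on chromosome 12 a segment of 31 bp (32930345 to 32930376) gained 3 units of that length in 4 of 5 WT and 3 of 3 A159V tumor reads.

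**Figure D5:**
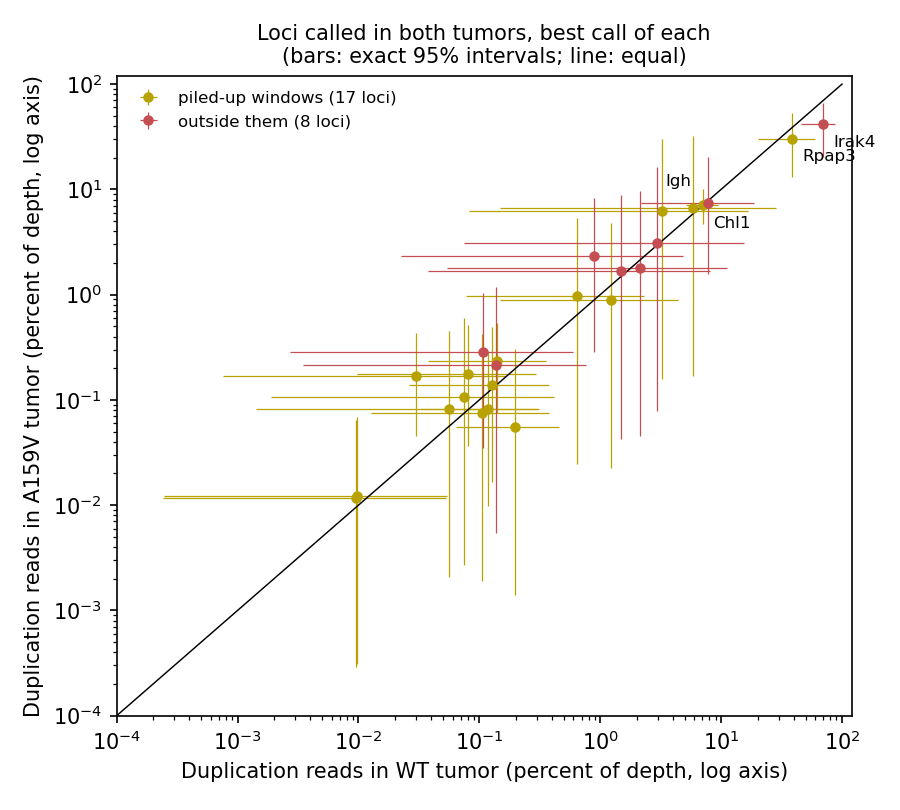
Duplication reads as a percentage of depth in the A159V tumor (y, log axis) against the WT tumor (x, log axis) at the 25 loci called in both with a depth of 15 or more in each, taking the best call of each tumor, with exact 95% intervals. The 17 loci in piled-up windows and the 8 others scatter about the line of equal percentages, with Chl1, Igh, Rpap3 and Irak4 at the top.

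Calls without a duplication read within 10 bp in any of the other 3 libraries, called private here, made up 371 of the WT and 236 of the A159V calls, a ratio of 0.636 (0.538 to 0.751). At a depth of 20 or more they numbered 73 and 39, a ratio of 0.534 (0.353 to 0.799). With 2 or more reads there were 14 WT and 2 A159V calls of this kind, a ratio of 0.143 (0.0158 to 0.622), a count that was chosen after its values were seen. The distance is that between starts. Leaving out calls whose segment overlaps one read in another library as well left 358 and 226 private calls, and 11 and 2 of those with 2 or more reads. The other libraries could show a duplication only where they had reads, and at most of these sites normal lung had a depth of 0 or 1.

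The WT calls of this kind were led by a gene-free site of chromosome 14 (18366384 to 18366428), where 4 of 4 reads carried 2 added units of 44 bp, with a normal depth of 0. Npas1, a transcription factor of the PAS family, had 2 of 16 tumor reads and 0 of 13 in normal lung, but its segment overlaps others that start more than 10 bp away and were read in normal lung and in the A159V libraries. Zfp534, a zinc finger gene, had 2 of 13 and 0 of 17. In the A159V tumor the calls were Vcpkmt, a methyltransferase gene, with 2 of 31 tumor reads (6.45%, 0.791 to 21.4) and 0 of 31 in normal lung, which allows up to 9.68%, and a gene-free simple repeat on chromosome 13 with 2 of 2 reads. Capitals mark both copies in the Vcpkmt run and alternate units in the run of chromosome 14.
Vcpkmt, A159V tumor, chr12:69582300-69582346: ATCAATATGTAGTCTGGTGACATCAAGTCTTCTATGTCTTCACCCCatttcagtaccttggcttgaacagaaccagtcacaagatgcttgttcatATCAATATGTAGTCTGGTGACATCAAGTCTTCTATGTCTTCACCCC
chromosome 14, WT tumor, chr14:18366384-18366428: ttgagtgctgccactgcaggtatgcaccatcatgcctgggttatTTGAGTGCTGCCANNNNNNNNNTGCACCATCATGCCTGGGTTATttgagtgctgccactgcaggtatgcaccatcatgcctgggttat

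The share of reads with the duplication, at a depth of 20 or more, had a median of 0.919% (0.521 to 1.47) over 124 WT calls and 0.855% (0.288 to 1.75) over 81 A159V calls. The medians lay further apart by place than by genotype. In piled-up windows the medians were 0.139% and 0.101%, and outside them 1.82% (1.52 to 2.44) over 65 WT calls and 2.35% (1.75 to 3.13) over 41 A159V calls. The intervals of the tumors overlap in each. A call of 1 read has a low share wherever depth is high.

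Of 21900 annotated protein-coding genes the WT calls touched 219 and the A159V calls 158. In both lists were 37 genes, 16.9% of the WT and 23.4% of the A159V list. The overlap to be had from gene length and coverage was not computed, so 37 cannot be read as many or few. In the WT tumor Chl1 had 10 calls, Slc6a13 4, and C2cd2l and Cmya5 3 each. In the A159V tumor Chl1 had 10, Rpap3 4, and Mast4 and Zfp457 3 each.

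Genes of replication and Okazaki fragment maturation held 3 calls in each tumor, 1.19% (0.245 to 3.43) of WT and 1.69% (0.351 to 4.87) of A159V calls in protein-coding gene spans, against 0.233% of gene length. They were Blm, Mcm8 and Ticrr, a factor that helps start replication, in the WT tumor, and Mcm8 and the RecQ helicase genes Recql and Recql4 in the A159V tumor. Ticrr had 1 of 72 reads, Recql 1 of 17 and Recql4 1 of 16. DNA repair genes held 3 WT calls, all in Fanca, and 2 A159V calls, in Fanca and in Parp1, a sensor of DNA strand breaks, 1.19% (0.245 to 3.43) and 1.13% (0.137 to 4.02) against 0.510% of gene length. The 3 WT calls in Fanca share a start, so they may be 1 event. Lung cancer genes held 5 WT calls, in Fgfr2, the receptor tyrosine kinase Alk and the phosphatase Ptprd, and 2 A159V calls, in Alk and Arid1b. These were 1.98% (0.645 to 4.55) and 1.13% (0.137 to 4.02) of calls in gene spans against 1.17% of gene length, which lies within both intervals. The WT calls in Fgfr2 share a start and may be 1 event too. Gene length here includes introns, whereas the libraries were exon-captured. The length shares given here and below are therefore not shares of captured sequence, and no excess can be read from them.

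Large genes known for fragile sites held 8 WT calls (3.16%, 1.37 to 6.14) and 10 A159V calls (5.65%, 2.74 to 10.1), against 4.19% of gene length. The WT calls were in Magi2, Mast4, Naaladl2 and Ptprn2, and the A159V calls included Auts2, Csmd1, Dlg2, Fhit, Gphn and Mast4. Some Mast4 calls of each tumor share a start, so they may not be separate events. Fhit, the gene of a well-known fragile site, had 1 of 1 A159V read in a simple repeat. Lung epithelium genes held 1 WT call (0.395%, 0.01 to 2.18), in the dynein gene Dnah12, against 0.146% of gene length. They held none in the A159V tumor, where 0 of 177 calls allows up to 1.69%. Zinc finger genes held 10 WT calls (3.95%, 1.91 to 7.15) and 8 A159V calls (4.52%, 1.97 to 8.71) in protein-coding gene spans, against 1.37% of gene length. Olfactory and vomeronasal receptor genes held 6 (2.37%, 0.875 to 5.09) and 1 (0.565%, 0.0143 to 3.11), against 0.551%. Immune receptor loci held 5 calls in each tumor, 1.71% (0.556 to 3.94) and 2.44% (0.797 to 5.60) of calls in gene spans of any kind, against 0.681% of the length of all genes. Reads of such gene families can be placed at near-identical copies, so their counts are uncertain. Their length shares include introns too, so no excess can be read from them.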

How the data were processed

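Genomic DNA from 4 mouse lung libraries (1 per group) was exon-captured, per the labels' protocols, and tandem duplications were called with Pindel on GRCm38, per the file headers. The submitters' processing notes name BWA, mm10 and GRCm38; tool versions and filters before deposit are not stated there. The values used are the authors' deposited read counts for the reference and the duplicated allele, used without normalization. Each column was matched to its sample by the column name in that sample's description. All 1404 records passed the authors' filter and had a breakpoint homology of 0 bp.

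A call needed 1 duplication read. Members, gene lists and classes were chosen with earlier results of these data known. Genes were assigned by span from RefSeq (GRCm38.p6, 49997 genes). Calls within 10 bp formed 1 locus. Intervening bases were compared by edit distance, with n matching any base. No satellite consensus was used, so the planned share in major satellite was computed as the share in piled-up windows. Each call was put in the first class that held: exact copy, several copies of a unit, partial direct copy (a shared 12-mer), inverted stretch (a 12-mer of the reverse complement), no shared stretch. Per tumor, the text names the calls with most reads in and outside protein-coding genes, exact copies with most reads, shortest and longest segments, highest read shares at a depth of 20 or more, genes and windows with most calls, the shared loci with most reads, and list genes with a call; calls with units, inverted stretches or private reads were named after their values were seen. Some items are not reported here.

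With 1 library a group no test was made. Counts carry exact Poisson intervals, ratios exact conditional binomial intervals, shares Clopper-Pearson intervals, differences of shares Newcombe intervals and medians order-statistic intervals, at 95%. A difference of medians carries the span between opposite ends of the intervals of both medians, which is wider than a 95% interval. Reads without molecular identifiers can be copies, so all of these cover counting error only. A limit beside a count of 0 is 3 counts of the total. Alternatives required 2 reads, merged loci, or left out piled-up windows, simple repeats, calls read in normal lung, low depth or loci of both tables. The scripts were tested on simulated data. Python 3.11.15, NumPy 2.4.6, pandas 2.3.3, SciPy 1.17.1 and matplotlib 3.10.9 were used.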

Additional observations from a re-analysis of the deposited data

How the results depend on the processing

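No paired analysis was possible because each group is 1 library. Over 21 results and 114 alternative values, 107 stayed within the interval or band of the value reported. They were 89 of 96 under alternatives listed at the start and all 18 added after the data were seen. The number of chromosomes with fewer A159V calls, 18, has no interval and was given a set band of 12 to 27. Its value with 2 or more reads, 12, lay on the edge of that band. Many intervals are wide, so staying within one is a weak criterion. Division by reference reads summed over each tumor's own recorded sites turned the ratio of tumor calls from 0.665 to 1.02, and the sites summed are unlike. All other moves came from requiring 2 or more duplication reads, which left 63 WT and 34 A159V calls. The ratio of calls was then 0.540 (0.345 to 0.832). The A159V minus WT difference in median GC content was then -3.41 percentage points (-9.38 to 6.55), that in the share at a depth of 20 or more 12.1 points (-7.75 to 31.5), that in the share of insertions in multiples of 3 in gene spans -17.0 points (-39.8 to 8.15), that in the share with reads in normal lung 13.3 points (-7.11 to 32.4), and that in the share with a call of the other tumor within 10 bp 31.3 points (12 to 46.0). The cause was not tested. The ratio of private calls with 2 or more reads ran from 0.0833 to 0.182 over its alternatives. Depth limits most sites: the median was 2 reads in each tumor, so absence in a library was mostly not detectable.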

Other observations

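Private calls at a depth of 20 or more in protein-coding gene spans rested on 1 read in most cases. The WT examples of highest share were Srebf1, a transcription factor of sterol synthesis, with 1 of 21 reads, Prlr, the prolactin receptor, with 1 of 21, and a site within both Frs3 and Prickle4, with 1 of 22. Normal lung had 0 of 24, 0 of 24 and 0 of 12 reads at these sites. In the A159V tumor Dnah2, a dynein gene, had 1 of 23 reads and Pigq, of GPI anchor synthesis, 1 of 21, with 0 of 16 and 0 of 26 in normal lung.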
